A study of Mus musculus with 4 samples.

Results

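A set of 9 genes of the Wnt pathway was followed through the embryonic mouse forebrain, chosen by name from the 43346 features of the count tables. They comprise 3 ligands (Wnt7a, Wnt7b and Wnt5a), 2 receptors (Fzd9 and Fzd5), 1 secreted inhibitor (Sfrp1), 2 nuclear effectors (Lef1 and Tcf7l2) and 1 target gene (Axin2). Transcripts were counted by droplet single-cell RNA sequencing in 4 libraries from wild-type C57BL/6 mice at E12.5. The cortex (CTX) gave 1 library, and so did each ganglionic eminence, the lateral (LGE), the medial (MGE) and the caudal (CGE), made from tissue pooled over embryos of both sexes. All 4 groups share genotype and age, and none carried a transgene or received an agent. By their labels they differ only in region, and with 1 library each, region and library preparation cannot be told apart. No region had a replicate library, so intervals below are exact Poisson or binomial 95% intervals that cover counting error only.

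Wnt ligands are lipid-modified secreted proteins that bind Frizzled receptors together with co-receptors. In the canonical branch this stabilizes beta-catenin, which enters the nucleus and acts with the TCF/LEF factors on target genes, while other ligands such as Wnt5a are best known for signalling without beta-catenin. In the developing telencephalon the pathway is known for patterning the dorsal midline, for keeping cortical progenitors cycling and for guiding axons and blood vessels.

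Cells were read in 2 classes. High-Nes cells had Nes, an intermediate filament gene of radial glia, above 1.5 on the scale ln(1 + UMIs per 10000), and high-Dcx cells had Dcx, a microtubule-associated gene of young neurons, above the same value. Cells past both gates, 14 to 73 a library, were left out of both classes. Below, progenitors and neurons stand for these 2 classes. Part of the high-Dcx cells still held a UMI of Mki67, a gene of cycling cells, 137 of 778 in CTX and 512 of 1977 in LGE. The libraries held 31451467 to 49794765 UMIs (unique molecular identifiers, 1 per captured molecule) and 3136 to 4610 kept cells. CTX, LGE, MGE and CGE had 862, 577, 505 and 162 high-Nes cells and 778, 1977, 2113 and 2232 high-Dcx cells. Median depth was 8440 to 9903 UMIs in high-Nes and 6347 to 7941 UMIs in high-Dcx cells. Marker lists were summed as UMIs per 1000000 of the summed class (CPM). The radial glia list came to 4114, 5446, 6220 and 11595 CPM in high-Nes cells of CTX, LGE, MGE and CGE. High-Nes cells were thus unlike across regions in these markers. The same list came to 664 to 1455 CPM in high-Dcx cells. The young neuron list, which like the first holds its own gate gene, came to 225 to 584 CPM in high-Nes and 5204 to 6794 CPM in high-Dcx cells. Library pairs shared 4 to 15 barcodes. Levels are CPM, not scaled to transcript length, and are compared within a gene only. A lower CPM does not separate fewer expressing cells from less RNA per cell. The tables hold counts near the 3′ end of transcripts, and whether they were made by strand was not given in the sources used here.

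Wnt7b showed opposite patterns in the cortex and the eminences. The gene lies at chr15:85535437-85582473 (GRCm38, minus strand) and overlaps AU022754 on the other strand. The counts of the pair are uncertain if they were made without regard to strand. In high-Nes cells it measured 18.5 CPM in CTX, 7.27 in LGE, 42.8 in MGE and 201 CPM (interval 179 to 225) in CGE. In high-Dcx cells it measured 268 CPM (interval 256 to 281) in CTX, 1.02 in LGE, 0.642 in MGE and 16.8 CPM in CGE. Cortical neurons and CGE progenitors thus held the high levels, and neurons of the LGE and MGE were near 1 CPM. Within CTX the high-Dcx level was 14.5-fold the high-Nes level (interval 12.1 to 17.3). The high-Nes level was 7.16-fold the high-Dcx level in LGE, 66.7-fold in MGE and 12.0-fold (interval 10.1 to 14.2) in CGE.

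Over the 4 libraries, the class difference of Wnt7b in edgeR's quasi-likelihood test was 2.39 on the log2 scale (high-Nes over high-Dcx, SE 1.84, Benjamini-Hochberg adjusted p = 0.309) and was not called. Without the CTX library it was 3.95 (adjusted p = 0.00169). The difference of CTX from the eminences was itself fitted, in a model added after the data were seen that assumes 1 cortical library varies as the eminence libraries do. Wnt7b then differed by -7.90 on the log2 scale (SE 0.88, edgeR adjusted p = 0.0335), 1 of 129 genes called, 1.05% of those tested. It was the only one of the 8 tested members called there.

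**Figure D1:**
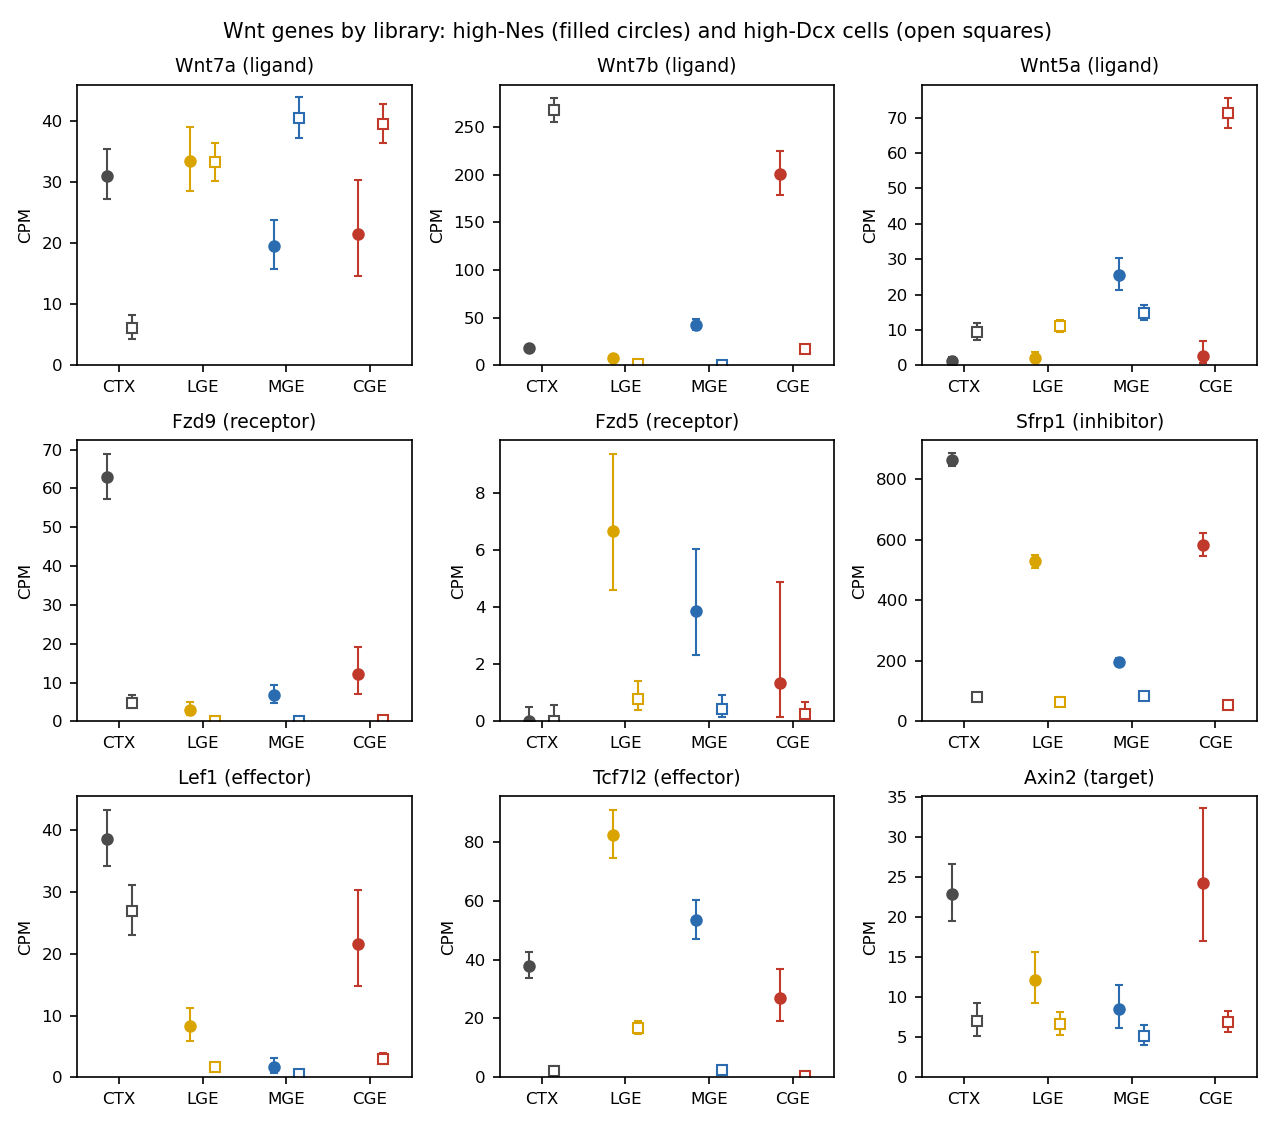
Level of each of the 9 genes (CPM, linear axes from 0) in high-Nes cells (filled circles) and high-Dcx cells (open squares) of each library, with exact Poisson 95% intervals. The high Wnt7b levels were those of CTX high-Dcx cells (268 CPM) and CGE high-Nes cells (201 CPM), and Sfrp1 was higher in high-Nes cells in all 4 libraries.

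Neuron type split the ligands within a library. In CTX high-Dcx cells Wnt7b measured 277 CPM in the 720 cells with a UMI of Neurod6, a factor of excitatory neurons, and 77.5 CPM in the 58 without one. In the 50 CTX cells with a UMI of Gad2, which encodes a GABA-synthesizing enzyme, Wnt7b measured 11.3 CPM, from 3 UMIs, against 279 CPM in the others. In CGE high-Dcx cells it measured 286 CPM in 81 cells with a UMI of Neurod6 and 5.06 CPM in the 2151 without, a ratio of 56.5 (interval 43.0 to 74.9). The CGE level in neurons was therefore held mostly by a small set of cells, 185 of its 260 UMIs. Tbr1, another excitatory-lineage factor, split CGE in the same direction, with 262 CPM in 84 cells and 5.41 CPM in 2148. The cortical glutamatergic marker list summed to 73.5 CPM in CGE high-Dcx cells and to 2908 CPM in those of CTX. A list of diencephalon genes marked 54 CGE high-Dcx cells, with Wnt7b at 296 CPM in them and 8.003 CPM in the rest, but that list also marked 194 CTX high-Dcx cells. The origin of these CGE cells was not tested.

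Wnt7b also varied among progenitors of 1 region. In MGE high-Nes cells it measured 76.6 CPM in cells with a UMI of Nr2f2, a factor of the caudal and dorsal eminence, and 33.5 CPM in those without. Cells with a UMI of Nkx6-2, a homeobox gene of the border with the LGE, had 13.4 CPM and the others 46.9 CPM. Cells with a UMI of Mki67, a gene of cycling cells, had 33.2 CPM against 78.3 CPM, a ratio of 0.423 (interval 0.318 to 0.565). The same split by Mki67 was smaller in CGE, at 172 and 251 CPM. CGE high-Nes cells with a UMI of Pax6, a dorsal patterning gene, had 254 CPM and those without 169 CPM (ratio 1.51, interval 1.19 to 1.90), while the ratio was below 1 in LGE (4.02 and 9.45 CPM) and in CTX (16.5 and 36.0 CPM), where the counts were low. In CTX, 9 high-Nes cells with at least 2 cortical hem markers held 10.9% of the class's Wnt7b UMIs, at 141 CPM.

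CTX high-Dcx and CGE high-Nes cells also led by their share of cells with a Wnt7b UMI. After each cell was thinned to 3000 UMIs, 49.5% of CTX high-Dcx cells (interval 45.9 to 53.1%) and 43.8% of CGE high-Nes cells (interval 35.9 to 51.8%) had a Wnt7b UMI, against 0.206% of LGE and 0.242% of MGE high-Dcx cells. Unthinned, these shares were 74.0%, 72.8%, 0.455% and 0.379%. Barcodes with at least 50% globin UMIs served as a background, since red blood cells should lack the gene: 6 of 156 in CTX (3.85%, median 1158 other UMIs) held a Wnt7b UMI. In LGE 0 of 59 did, which allows up to 35.2 CPM. The 4.31% of thinned CTX high-Nes cells with Wnt7b lay near that CTX background, at a higher depth. The CTX globin barcodes held Wnt7b at 35.4 CPM of their other UMIs, from 8 UMIs. That is a measure unlike the 18.5 CPM over all UMIs of CTX high-Nes cells, of which 11.7% held a Wnt7b UMI unthinned. What part free RNA has in the 18.5 CPM was not tested, and the CTX class ratio takes that level as measured.

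Wnt7a, a close relative of Wnt7b, had the reverse arrangement between cortical and ventral neurons. It lies at chr6:91363981-91411363 (minus strand) and overlaps no other annotated gene. High-Nes cells measured 31.1 CPM in CTX, 33.5 in LGE, 19.6 in MGE and 21.5 CPM in CGE. High-Dcx cells measured 6.09 CPM (interval 4.35 to 8.29) in CTX, 33.3 in LGE, 40.6 in MGE and 39.6 CPM in CGE. Among progenitors no neighbouring levels in order differed beyond counting error, while the ends did, LGE being 1.71-fold above MGE (interval 1.33 to 2.23). Among neurons the cortical level stood apart from the other 3, and MGE and CGE did not differ beyond counting error. High-Nes cells were 5.11-fold higher in CTX (interval 3.64 to 7.34), high-Dcx cells were 2.08-fold higher in MGE and 1.84-fold higher in CGE, and LGE showed a ratio of 1.01 (interval 0.838 to 1.205).

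The 4-library edgeR difference of Wnt7a was -0.05 on the log2 scale (SE 0.57, adjusted p = 0.953), higher in high-Nes cells in 2 of 4 libraries. Without CTX it was -0.69 (adjusted p = 0.0423), and it turned positive without MGE (0.36) or without CGE (0.25), neither of which was called. The difference of CTX from the eminences was 2.95 (SE 0.49, adjusted p = 0.0636).

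Wnt7a was higher in the CTX high-Dcx cells with GABAergic genes, which held 25 of its 40 UMIs in that class. The 50 CTX high-Dcx cells with a Gad2 UMI measured 93.9 CPM and the 728 others 2.38 CPM, a ratio of 39.5 (interval 20.0 to 80.6). These were shallower cells, with 5323 UMIs on average against 8663. The 42 cells with a UMI of Lhx6, a factor of MGE-derived interneurons, measured 88.0 CPM and the 736 others 3.15 CPM. In the eminences 1884 of 1977, 1817 of 2113 and 1963 of 2232 high-Dcx cells had a Gad2 UMI, and levels with and without it were closer, at 32.8 and 45.2 CPM in LGE, 40.1 and 43.9 in MGE and 40.9 and 29.2 CPM in CGE. Within LGE the 177 cells with Lhx6 had 65.1 CPM and the 1800 others 30.6 CPM. Cells with Isl1, a gene of striatal and cholinergic neurons, had 20.2 CPM against 42.4 CPM in MGE and 20.4 against 42.5 CPM in CGE. Cycling high-Dcx cells, those with Mki67, had 24.4 against 45.6 CPM in MGE and 16.9 against 42.6 CPM in CGE.

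**Figure D2:**
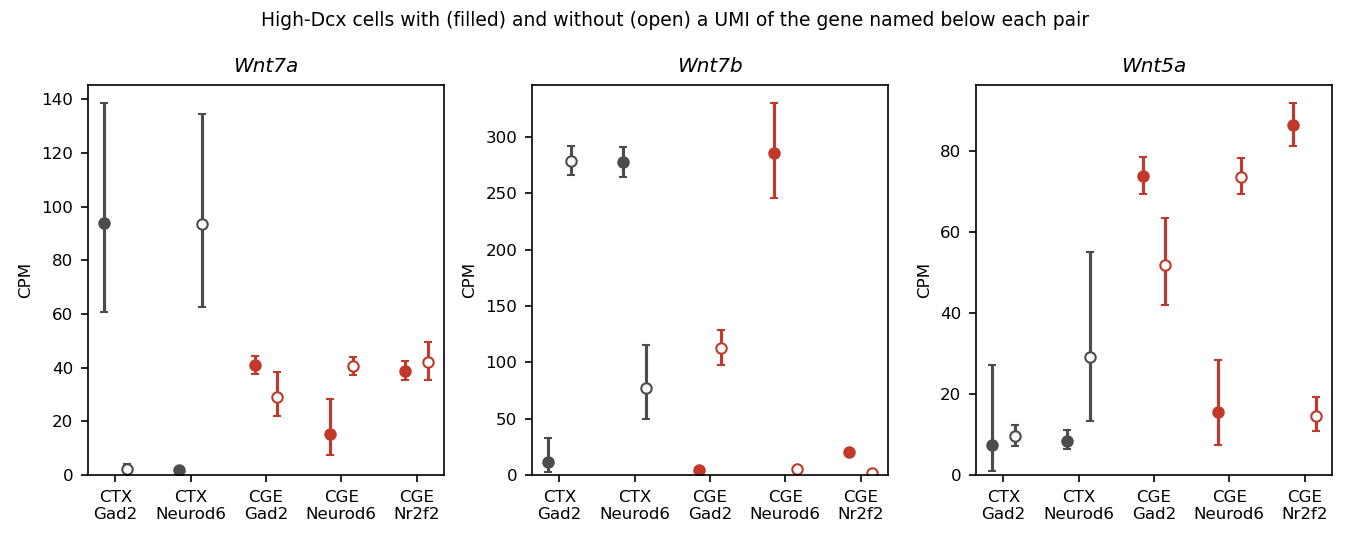
Levels of Wnt7a, Wnt7b and Wnt5a (CPM, linear axes from 0, exact Poisson 95% intervals) in CTX (grey) and CGE (red) high-Dcx cells with (filled) and without (open) a UMI of the gene under each pair. Wnt7b was high in Neurod6 cells of both libraries, at 277 and 286 CPM, Wnt7a was at 93.9 CPM in Gad2 cells of CTX, and Wnt5a was at 86.5 CPM in Nr2f2 cells of CGE.

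Wnt5a is a ligand known for signalling through other receptors as well. In these libraries it was highest in high-Dcx cells of the CGE, and in the MGE it was in both classes. It lies at chr14:28504750-28527448 (plus strand) and overlaps Gm2670 on the other strand. High-Nes cells measured 1.35 CPM in CTX, 2.02 in LGE, 25.5 in MGE and 2.69 CPM in CGE, and high-Dcx cells 9.43, 11.02, 14.9 and 71.2 CPM. MGE progenitors and CGE neurons thus led their classes, 9.46-fold (interval 3.61 to 35.3) and 4.78-fold (interval 4.12 to 5.57) above the next library, although only 4 UMIs made up the CGE high-Nes level. High-Dcx cells were higher in CTX (6.97-fold), LGE (5.46-fold) and CGE (26.5-fold), and high-Nes cells in MGE (1.71-fold, interval 1.36 to 2.14). The edgeR difference was -1.98 on the log2 scale (SE 0.88, adjusted p = 0.103), not called. Without MGE it was -3.30 (adjusted p = 0.00838), and DESeq2 gave an adjusted p of 0.00382. In CTX high-Nes cells, 3 of its 10 UMIs were in the 9 hem-marker cells.

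Within CGE high-Dcx cells Wnt5a measured 86.5 CPM with and 14.6 CPM without a UMI of Nr2f2, a ratio of 5.92 (interval 4.43 to 8.08). Sp8, a zinc finger gene of the dorsal LGE and CGE, marked higher levels too, with 112 against 57.1 CPM in CGE and 21.8 against 6.91 CPM in LGE. Cells with Ebf1, a gene of striatal projection neurons, were low, at 10.0 against 77.8 CPM in CGE and 3.05 against 14.2 CPM in LGE. In CTX the direction was the opposite, with 34.9 CPM in 40 Ebf1 cells and 8.03 CPM in the others (ratio 4.35, interval 2.11 to 8.28). Isl1 cells had 26.8 against 78.1 CPM in CGE. In MGE progenitors the direction of Nr2f2 was the opposite of that in CGE neurons, with 7.56 CPM in Nr2f2 cells and 30.4 CPM in the others. There Wnt5a was higher in cells with a UMI of Wnt7b, at 45.6 against 19.4 CPM (ratio 2.36, interval 1.62 to 3.41). After thinning, 16.7% of CGE high-Dcx cells held a Wnt5a UMI (25.9% unthinned), and 0 of 17 CGE globin barcodes did, which allows up to 97.0 CPM and so sets no useful background.

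The receptor Fzd9 was a progenitor gene, highest in the cortex. This Frizzled gene lies at chr5:135248938-135251230 (minus strand) with no annotated overlap. High-Nes cells measured 62.9 CPM (interval 57.3 to 68.9) in CTX, 3.03 in LGE, 6.72 in MGE and 12.1 CPM in CGE. High-Dcx cells measured 4.87 CPM in CTX, 0 in LGE, 0.0713 in MGE and 0.259 CPM in CGE, and the LGE count of 0 allows up to 0.218 CPM. Globin barcodes of CTX held Fzd9 at 13.3 CPM of their other UMIs, from 3 UMIs, and those of the eminences held none. What part free RNA has in the CTX high-Dcx level was not tested. CTX progenitors were 5.19-fold above those of CGE (interval 3.25 to 8.84), and CGE and MGE did not differ beyond counting error. The high-Nes level was 13.9-fold the high-Dcx level in LGE, taking 3 counts for the 0 (lower end of the exact interval 9.99), and 12.9-fold in CTX. Counts of 1 and 4 UMIs stood behind the MGE and CGE high-Dcx levels, and the ratios there were 94.3 (interval 15.8 to 3835) and 46.8 (interval 15.4 to 190). The edgeR difference was 4.63 (SE 0.53, adjusted p = 0.00116). In MGE high-Nes cells Fzd9 measured 19.3 CPM in cells with a UMI of Wnt7b and 2.92 CPM in the others (ratio 6.61, interval 3.07 to 15.1), and 3.63 CPM in Mki67 cells against 18.2 CPM, from 33 UMIs in all. In CTX, with 465 UMIs, the ratio was 1.10 (interval 0.835 to 1.43) by Wnt7b and 0.973 (interval 0.787 to 1.21) by Mki67.

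Fzd5 was a low-count receptor, detected in the eminences. It lies at chr1:64730558-64737751 (minus strand) and overlaps Gm38058. High-Nes cells measured 0 CPM in CTX, 6.66 in LGE, 3.87 in MGE and 1.35 CPM in CGE, from 0, 33, 19 and 2 UMIs. High-Dcx cells measured 0, 0.798, 0.428 and 0.259 CPM. All 3432 kept CTX cells held no Fzd5 UMI, which allows up to 0.103 CPM. The LGE high-Nes level was 16.4-fold that of CTX, taking 3 counts for the 0 (lower end of the exact interval 12.6). LGE and MGE did not differ beyond counting error. The high-Nes level was 8.35-fold the high-Dcx level in LGE (interval 4.12 to 18.3) and 9.05-fold in MGE (interval 3.47 to 27.7), while that of CGE had an interval that included 1. After thinning, 1.79% of LGE and 1.19% of MGE high-Nes cells had a Fzd5 UMI (4.85% and 3.56% unthinned). High-Dcx cells of LGE and MGE were lower, at 0.258% and 0.145% (0.556% and 0.237% unthinned). A Fzd5 UMI was also in 1 of 59 LGE (1.69%, 11.7 CPM) and 1 of 53 MGE globin barcodes (1.89%, 13.3 CPM). These background shares were near the thinned high-Nes shares but rest on 1 UMI each. What part free RNA has in the Fzd5 counts was not tested. Fzd5 did not pass the count filter and had no test in the main fit. Within LGE high-Nes cells it measured 17.4 CPM with and 5.71 CPM without a UMI of Nkx6-2.

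Sfrp1, a secreted Frizzled-related protein that binds Wnts outside the cell, lies at chr8:23411502-23449632 (plus strand) with no annotated overlap. High-Nes cells measured 864 CPM in CTX, 528 in LGE, 195 in MGE and 583 CPM in CGE. High-Dcx cells measured 79.9, 64.3, 82.5 and 52.8 CPM. MGE progenitors stood apart at the low end, 2.70-fold below LGE, while neurons spanned 1.56-fold and those of MGE and CTX did not differ beyond counting error. The class difference was accordingly smallest in MGE, at 2.37-fold (interval 2.17 to 2.58), against 10.8-fold in CTX, 8.21-fold in LGE and 11.03-fold in CGE. The edgeR difference was 2.74 (SE 0.41, adjusted p = 0.00279). Within MGE high-Nes cells the 57 with a UMI of Nkx6-2 measured 384 CPM and the 448 others 169 CPM. In MGE high-Dcx cells Sfrp1 was lower with Nr2f2 (47.0 against 94.1 CPM), Isl1 (42.1 against 86.0 CPM) and Ebf1 (32.1 against 85.2 CPM). After thinning, 86.2% of CTX and 37.9% of MGE high-Nes cells had a UMI of Sfrp1 (96.1% and 64.8% unthinned), and 8.33% of CTX globin barcodes did. In MGE 0 of 53 did, which allows up to 39.8 CPM. The CTX globin barcodes held Sfrp1 at 115 CPM of their other UMIs, from 26 UMIs, and those of LGE at 23.5 CPM, from 2 UMIs. The CTX value lay above the 79.9 CPM over all UMIs of CTX high-Dcx cells, an unlike measure. What part free RNA has in that CTX high-Dcx level was not tested, and the CTX class ratio takes it as measured.

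The core promoters of the nuclear effectors Lef1 and Tcf7l2 and of the target Axin2 were read for the letters through which TCF/LEF factors bind. RefSeq windows of 250 bases before a start (GRCm38.p6) were found for 6 of the 9 genes, Wnt7a, Fzd9, Fzd5, Lef1, Tcf7l2 and Axin2, and not for Wnt7b, Wnt5a and Sfrp1. Searched on both strands were the motif CTTTGAA with its variant CTTTGAT and the motif CTTTGTA with its variant CTTTGTT, of which only 1 can match at a given place and strand. They occurred in 2 of 10 windows of these genes, against 14.8% of all 32851 windows. Given here, with the matched letters in capitals, are the windows with a match, 1 of 4 of Lef1 and 1 of 2 of Tcf7l2, and the single window of Axin2. The other 3 windows of Lef1 and the upstream window of Tcf7l2 held none.
Lef1, chr3:131156044-131156293, plus strand: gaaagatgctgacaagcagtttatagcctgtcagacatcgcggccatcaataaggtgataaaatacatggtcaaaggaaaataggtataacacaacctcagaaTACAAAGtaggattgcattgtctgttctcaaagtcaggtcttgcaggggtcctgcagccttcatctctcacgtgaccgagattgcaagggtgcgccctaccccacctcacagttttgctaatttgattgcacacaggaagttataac
Tcf7l2, chr19:55895071-55895320, plus strand: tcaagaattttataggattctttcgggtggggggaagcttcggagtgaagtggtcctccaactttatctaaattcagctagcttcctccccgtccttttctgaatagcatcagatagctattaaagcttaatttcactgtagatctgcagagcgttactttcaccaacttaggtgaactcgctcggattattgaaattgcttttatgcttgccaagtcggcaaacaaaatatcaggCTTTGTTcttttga
Axin2, chr11:108920099-108920348, plus strand: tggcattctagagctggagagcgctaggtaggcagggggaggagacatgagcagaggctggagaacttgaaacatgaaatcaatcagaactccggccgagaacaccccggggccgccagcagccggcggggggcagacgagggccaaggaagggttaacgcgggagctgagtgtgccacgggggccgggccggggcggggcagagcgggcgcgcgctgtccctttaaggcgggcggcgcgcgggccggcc
The Lef1 and Tcf7l2 matches are in windows of internal starts, and the match of Tcf7l2 ends 7 bases before its start. The Axin2 window held none of these letters, which says nothing of the factors elsewhere at the gene. UMI counts near the 3′ end do not tell which start was used.

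The nuclear effectors Lef1 and Tcf7l2 encode DNA-binding partners of beta-catenin and ranked the regions differently. Lef1 lies at chr3:131110471-131224356 (plus strand), overlapping Gm43352 on the other strand. It also overlaps Gm42449 on the same strand, where strand cannot tell the genes apart. High-Nes cells measured 38.6 CPM in CTX, 8.28 in LGE, 1.63 in MGE and 21.5 CPM in CGE. High-Dcx cells measured 26.9, 1.67, 0.499 and 2.91 CPM. Both classes followed the order CTX, CGE, LGE, MGE, and each step in both classes was beyond counting error. High-Nes cells were 1.43-fold higher in CTX (interval 1.18 to 1.74), 4.96-fold in LGE, 3.26-fold in MGE (interval 1.04 to 10.6, from 8 and 7 UMIs) and 7.40-fold in CGE. The edgeR difference was 1.68 (SE 0.44, adjusted p = 0.0213), and the call was lost without LGE (0.0818), MGE (0.0606) or CGE (adjusted p = 0.0728), and without the library block (adjusted p = 0.488). In LGE high-Nes cells, 2 cells with endothelial markers held 17.1% of the Lef1 UMIs and the rest measured 6.90 CPM. In CTX high-Nes cells the 9 hem-marker cells measured 169 CPM and the rest 36.7 CPM. In CGE high-Nes cells Lef1 measured 35.3 CPM with and 13.1 CPM without a UMI of Pax6. In CTX neurons it measured 27.9 CPM with and 6.46 CPM without Neurod6, the latter from 2 UMIs.

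Tcf7l2 lies at chr19:55741820-55933654 (plus strand) and contains Ppnr on the same strand, where strand cannot tell the genes apart. High-Nes cells measured 37.9 CPM in CTX, 82.4 in LGE, 53.4 in MGE and 26.9 CPM in CGE. High-Dcx cells measured 2.28, 16.7, 2.64 and 0.517 CPM. LGE led both classes, 1.54-fold above MGE in progenitors (interval 1.32 to 1.81) and 6.32-fold in neurons (interval 4.45 to 9.20). High-Nes cells were higher by 16.6-fold in CTX, 4.94-fold in LGE, 20.2-fold in MGE and 52.0-fold in CGE, and the edgeR difference was 3.73 (SE 0.52, adjusted p = 0.00227). In LGE high-Dcx cells Tcf7l2 was higher in Isl1 cells (26.0 against 9.17 CPM, ratio 2.83, interval 2.13 to 3.81) and Mki67 cells (29.1 against 10.5 CPM). The 512 Mki67 cells held 133 of its 230 UMIs in that class. In the 547 LGE high-Dcx cells below 0.5 for Nes, Hes5, Mki67, Ccnd1 and Ccnd2 it measured 7.59 CPM. In MGE the 156 Isl1 cells measured 12.3 CPM and the 1957 others 1.79 CPM. In CGE progenitors Tcf7l2 measured 40.3 CPM with and 15.2 CPM without a UMI of Gsx2, a ventral patterning gene. The globin barcodes of CTX and LGE held Tcf7l2 at 48.7 and 70.4 CPM of their other UMIs, from 11 and 6 UMIs, a level near that of progenitors. Their share, 6.41% in CTX and 8.47% in LGE at a median of 1158 and 1248 UMIs, stood beside 11.3% and 19.0% of high-Nes cells at 3000 UMIs (26.0% and 41.2% unthinned), and what part free RNA has in these counts was not tested. High-Dcx cells of the same libraries were well below, at 0.392% and 3.71%.

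Axin2, a feedback inhibitor that is a widely used readout of canonical signalling, lies at chr11:108920349-108950783 (plus strand) and overlaps Gm11670. High-Nes cells measured 22.9 CPM in CTX, 12.1 in LGE, 8.56 in MGE and 24.2 CPM in CGE. High-Dcx cells measured 6.998, 6.60, 5.21 and 6.85 CPM. Of 59 LGE globin barcodes 3.39% held an Axin2 UMI, at 23.5 CPM of their other UMIs, from 2 UMIs. The share was 3.22% in thinned LGE high-Nes cells. In CTX, MGE and CGE 0 of 156, 53 and 17 globin barcodes did, which allows up to 13.3, 39.8 and 97.0 CPM. What part free RNA has in the Axin2 counts was not tested. In progenitors CGE and CTX did not differ beyond counting error, nor did LGE and MGE, and CTX was 1.89-fold above LGE (interval 1.40 to 2.58). No pair of neighbouring levels among the neurons differed, and the range from highest to lowest was 1.34-fold (interval 0.909 to 1.97). High-Nes cells were 3.27-fold higher in CTX, 1.84-fold in LGE, 1.64-fold in MGE and 3.54-fold in CGE, and the edgeR difference was 1.20 (SE 0.25, adjusted p = 0.00924). In CGE high-Nes cells Axin2, as Lef1, was higher with Pax6 (40.6 against 14.1 CPM, ratio 2.87, interval 1.39 to 6.17), and in LGE neurons it was higher with Sp8 (10.8 against 5.01 CPM). In CGE progenitors, where Wnt7b was high, Axin2 measured 24.2 CPM in cells with and 24.4 CPM in cells without a UMI of Wnt7b (ratio 0.993, interval 0.453 to 2.40), an interval too wide to show that they did not differ.

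**Figure D3:**
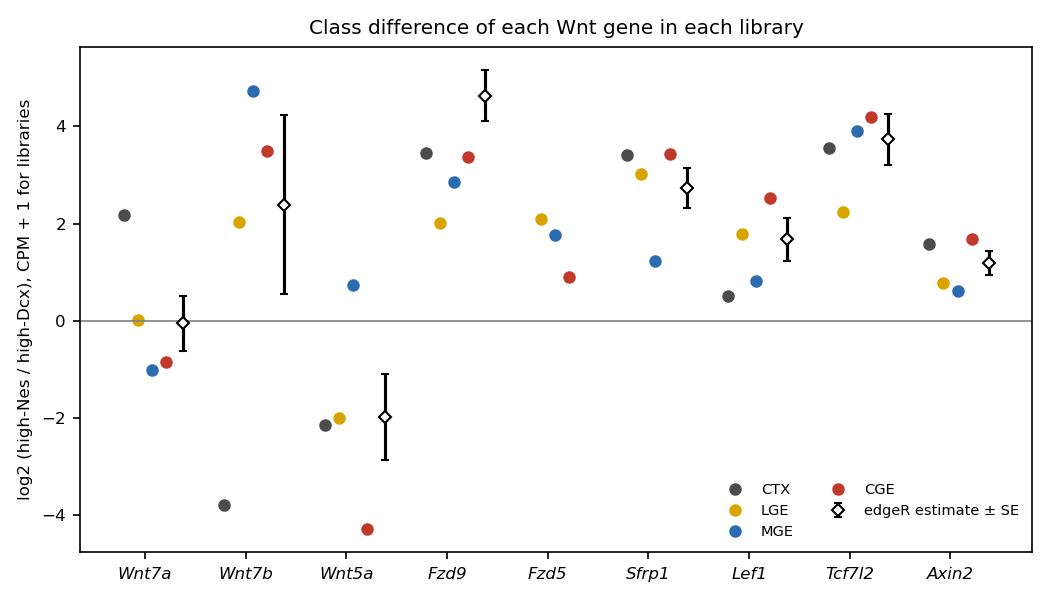
Class difference of each gene, as log2 of high-Nes over high-Dcx CPM + 1 in each library (coloured points) and as the edgeR estimate with its SE (diamonds, Fzd5 not tested and without a CTX point). Fzd9, Sfrp1, Lef1, Tcf7l2 and Axin2 lay above 0 in 4 of 4 libraries, and Wnt7b lay below 0 in CTX only.

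Across the 8 tested members, 5 were called in the class test (Fzd9, Tcf7l2, Sfrp1, Lef1 and Axin2), against 55.7% of the 12279 genes tested. All 5 were higher in high-Nes cells, a direction in which 27.8% of genes were called and against which 27.9% were, and all 5 were so in 4 of 4 libraries, where 68.1% of genes kept 1 direction. Without the CTX library 8 of 9 members were called, all but Wnt5a, against 54.8% of the genes then tested. The 3 ligands were the tested members without a call, which does not show that they did not differ. Regions separated more than for most genes: the highest library was at least 2-fold the lowest (CPM + 1) for 7 of the 8 in high-Nes cells and 6 of the 8 in high-Dcx cells, against 20.7% and 23.7% of the genes tested. The exceptions were Wnt7a in progenitors, and Sfrp1 and Axin2 in neurons. The genes tested span higher levels than most members, and the part of counting error in these shares was not tested.

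A list of 96 Wnt pathway genes put the 9 beside the rest of the pathway. Of 54 tested, 20 were higher in high-Nes cells (37.0%) and 15 in high-Dcx cells (27.8%), beside 27.8% and 27.9% of all genes tested. The remaining 19 were not called, and the median log2 difference was 0.18 against -0.02 over all genes tested. Without the members, 15 and 15 of 46 were called in the 2 directions (32.6% each), near the shares of all genes.

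Of 12 receptors and co-receptors tested, Fzd9 among them, 5 were higher in high-Nes cells (41.7%) and 1 in high-Dcx cells (8.33%), beside 27.8% and 27.9% of all genes tested. Fzd8 measured 87.0, 148, 48.3 and 76.0 CPM in high-Nes cells of CTX, LGE, MGE and CGE and 1.78 to 9.94 CPM in high-Dcx cells, with an edgeR difference of 4.03 (SE 0.18, adjusted p = 0.000168). Fzd7 differed by 3.96 and Fzd2 by 0.81, while Fzd3, known for axon guidance, was higher in high-Dcx cells, at -0.78. Of 7 secreted or membrane inhibitors tested, Sfrp1 among them, 6 were higher in high-Nes cells (85.7%) and 0 in high-Dcx cells. Sfrp2, a relative of Sfrp1, measured 62.1 to 90.2 CPM in high-Nes and 4.46 to 8.27 CPM in high-Dcx cells (3.49, SE 0.26, adjusted p = 0.000350), without the low MGE level of Sfrp1. Tpbg, a membrane inhibitor, differed by 1.69.

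Intracellular components went both ways. Of 11 cytoplasmic genes 2 were higher in high-Nes (18.2%) and 6 in high-Dcx cells (54.5%), beside 27.8% and 27.9% of all genes tested, among the latter 6 the scaffold genes Apc2 (-3.23) and Apc (-1.65), Dvl3 (-0.80) and the kinase gene Gsk3b (-0.75). Of 12 nuclear effectors 4 were higher in high-Nes (33.3%) and 6 in high-Dcx cells (50%). Tcf7l1, another TCF gene, differed by 3.85 and fell from 94.2 CPM in CTX progenitors to 14.8 CPM in those of CGE, and the corepressor gene Tle1 differed by 1.03. Tle2 (-3.81) and Tle4 (-1.73), other corepressor genes, were higher in high-Dcx cells. Porcn, the enzyme that attaches the lipid to Wnt proteins, was higher in high-Dcx cells, at -2.24 (SE 0.20, adjusted p = 0.000557). Of 5 target and feedback genes tested, Axin2 among them, 2 were higher in high-Nes (40%) and 1 in high-Dcx cells (20%), and 2 were not called. Ccnd1, a cyclin gene of that list, measured 99.3 CPM in CTX and 321 to 430 CPM in eminence progenitors. It differed by 3.82, with a regional order unlike that of Axin2.

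**Figure D4:**
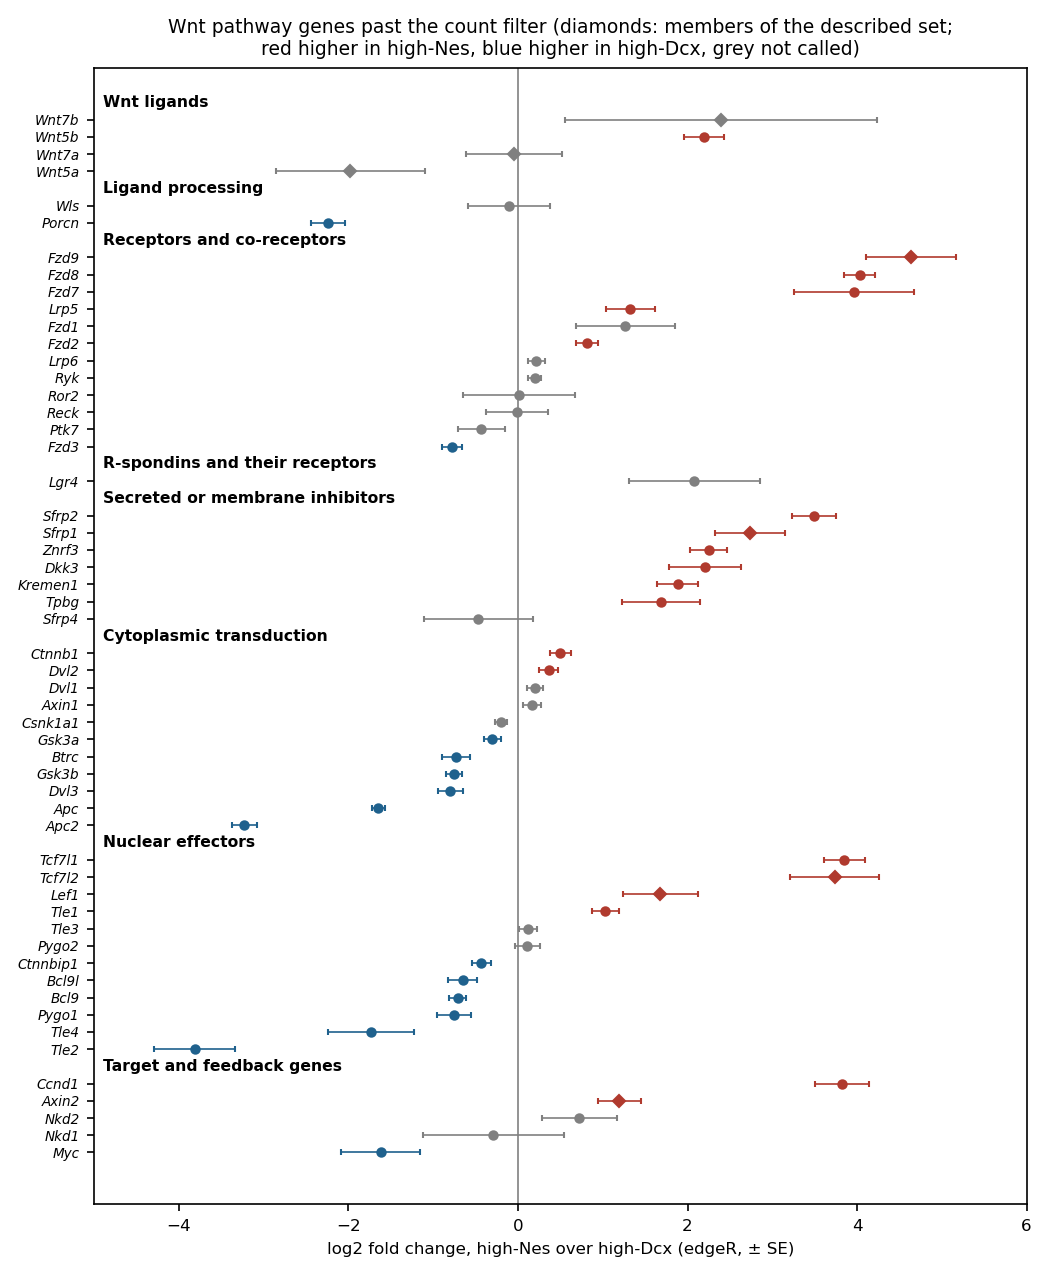
Class difference (log2 high-Nes over high-Dcx, edgeR, with SE) of the pathway genes past the count filter, by role. Of 7 inhibitors 6 were higher in high-Nes cells (red), and 6 of 11 cytoplasmic genes were higher in high-Dcx cells (blue). Of all genes tested, 27.8% and 27.9% were called in these directions.

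The genes whose levels moved most closely with a member over the 8 sums were described by Pearson's r of log2(CPM + 1), without a test, since the sums share libraries and classes. Lef1 was most like Otx1 (r = 0.981), a homeobox gene of the dorsal forebrain at 103, 22.0, 3.87 and 42.4 CPM in CTX, LGE, MGE and CGE progenitors. Tcf7l2 was most like Racgap1 (0.992), Melk (0.991) and Ska1 (0.988), genes of dividing cells. Axin2 was most like Rars2 (0.979), Derl2 (0.976) and Lrp4 (0.975), a receptor gene at 29.6, 10.9, 2.24 and 115 CPM in the same progenitors and at most 1.36 CPM in neurons. Wnt7a was most like Kpna6 (0.977) and Dnmt3a (0.957), Wnt7b like Sncaip (0.923), Wnt5a like Camk2n2 (0.915), Fzd9 like Zmpste24 (0.990), Fzd5 like Ctc1 (0.948) and Sfrp1 like Tbrg1 (0.980).

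Cells next to the gates were compared once, as a description. For CGE high-Nes cells, Wnt7b measured 148 CPM just outside the gate (1.25 to 1.5) and 209 CPM just inside (1.5 to 1.75), and for CTX high-Dcx cells 247 and 256 CPM. Sfrp1 in CTX high-Nes cells measured 741 and 796 CPM, and Wnt5a in CGE high-Dcx cells 36.0 and 39.8 CPM, below the class as a whole. Non-neural cells numbered 1 to 5 among the high-Nes cells of a library, and without them the same number of members was called. The microglia list summed to 153 CPM and the pericyte list to 90.2 CPM in CGE high-Nes cells, whose 162 cells made them the smallest class.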

How the data were processed

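The authors deposited unscaled UMI counts, 1 value per gene and cell barcode (10x Genomics 3′ libraries), which they made with Cell Ranger against mm10 (version 3.0.2 per the file headers, 3.0.0 in the submitters' processing notes). The labels describe sorting for live cells, whereas the study's methods describe sorting for another mouse line, which was not settled. The 9 genes and all lists were chosen with earlier results of these data known. Barcodes with 1500 to 4500 genes, under 5% mitochondrial and under 1% Hbb UMIs were kept, and predicted doublets (Scrublet in scanpy 1.11.5, at 0.8% per 1000 barcodes) were removed. Class sums (8, of 4 libraries) were tested with edgeR 4.0.16 (quasi-likelihood test, TMM, filterByExpr, library as a block because both classes come from the same library, Benjamini-Hochberg adjustment, threshold 0.05) after tests on simulated data. The libraries of different regions serve there as replicates, so p-values reflect the spread between regions. The simulated data held no difference between regions, so the tests on them do not cover that spread. Alternatives were DESeq2 1.42.0, library totals, no filter, other gates and cell filters, thinning, no block and each library left out. Named beside the members were, in each direction, up to 8 called pathway genes of largest difference at 20 CPM or more, the 3 most alike genes, and splits by another gene with a ratio above 2 or below 0.5, an interval off 1 and 20 UMIs (80 of 411), of which examples are given; splits outside this rule were chosen after their values were seen. Positions came from GENCODE M21 by gene ID.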

Additional observations from a re-analysis of the deposited data

Results flagged for a closer look

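For Wnt7b the class difference in CTX ran opposite to that in the 3 eminences, with a high-Nes to high-Dcx ratio of 0.0692. The test of that difference gave -7.90 on the log2 scale (edgeR adjusted p = 0.0335). For Wnt7a the ratio in CTX was 5.11, with MGE and CGE in the opposite direction and an adjusted p of 0.0636 for the difference of CTX from the eminences. For Wnt5a the ratio in MGE was 1.71, and the other 3 libraries went the opposite way; this difference of MGE from the others was not tested. No library stood apart from the other 3 in the class difference of any member by Dixon's criterion, which chance passes in about 1 of 20 groups.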

How the results depend on the processing

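Members called in the class test numbered 4 to 8 with a library left out, against 5 with all 4 libraries. The 8 of the fit without CTX were Wnt7b, Wnt7a and Fzd5 beside the 5, against 54.8% of the genes then tested. Genes called over the whole table numbered 5202 to 7114 with a library left out, against 6840, and genes of the pathway list 28 to 43, against 35. Without the replicate block, which the main fit holds because both classes come from 1 library, 6172 genes, 31 pathway genes and 4 members were called, Lef1 being the one lost, and Wnt7b turned to -0.24. Wnt7a, near 0, turned to 0.12 after thinning, 0.0068 without the upper gene limit and 0.036 with library totals only, and with a library left out it ranged from -0.69 (without CTX) to 0.36 (without MGE), 0.25 without CGE. No filter on low counts added Fzd5 (2.77, adjusted p = 0.00441), and DESeq2 added Wnt5a. Of 136 class differences of members under alternatives, 122 kept direction and call, 4 lost the call, 4 gained it and 6 turned direction. Of 180 log2 ratios between the 2 highest libraries of a class, 174 stayed within their counting interval and 6 left it without turning. The median share of cells with a UMI of a member was 2.73% after thinning and 6.91% at own depth. Leaving out hem or diencephalon marker cells, chosen after seeing the data, left 5 members called. With 1 library a region, regional levels have no replicate check, and members under about 1 CPM rest on a few UMIs.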
